A study of Ptychodera flava with 31 samples.

Results

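A set of 196 transcripts of the acorn worm Ptychodera flava was low, relative to its highest level, in the egg, embryo and feeding larva, and was higher from the last tornaria stage, through the metamorphosing larva, to the adult. They were chosen on their level in TPM, which is scaled by transcript length and sums to the same total in every library, averaged per stage. M, the highest of the 16 stage means, had to reach 10 TPM. Each of the 13 stages from the unfertilized egg to Spengel had to stay at or under 10% of M. Each of Agassiz, transforming larvae and adult had to lie above 20% of M. Of 35854 transcript models in all, 18349 had an M of at least 10 TPM and 196 met the whole rule, fewer than the 300 that it would have kept, so that every qualifying model is included.

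Ptychodera flava is a hemichordate, a marine relative of echinoderms within the deuterostomes. Its embryo develops into a tornaria, a ciliated larva that drifts and feeds in the plankton, passes through a series of named stages and then sinks, loses its ciliary bands and lengthens into a burrowing worm with a proboscis, a collar and a trunk. Metamorphosis in such animals is known to replace larval organs for swimming and particle capture with those of the adult body. All libraries came from whole wild-type animals. The groups were transforming larvae (1 library), adult (1 library) and Agassiz, the last tornaria stage (2 libraries). They were set against the earlier tornaria stages Spengel, Krohn, Meschnikoff, Heider and 72 hours post fertilization (hpf) tornaria (2 libraries each). The embryonic stages were late gastrula, mid gastrula after and before mesoderm migration, early gastrula, late and early blastula and 16-32 cell, with 16 libraries in all, and the unfertilized egg had 1. The labels do not say how many animals were pooled, or whether the replicates of a stage came from separate parents or cultures, and p-values therefore cover only how far these samples differ, which may be technical.

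The 31 libraries held 11539946 to 17288661 estimated counts each. No library was a repeat of another within counting noise: in all 17 within-stage pairs the chi-square of the counts, divided by its degrees of freedom, was 4.31 or more. Whether they are biological or technical repeats cannot be told from this, and each was counted as 1 sample, as labelled. The models carry assembly identifiers, and 0 of the 35854 occurred in the reference gene table of 38920 genes, so that transcripts are given by identifier, with no gene name, role or sequence. In whole animals, more cells that use a gene and more RNA per cell cannot be told apart.

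The 196 transcripts differed widely in level, and a few of them held most of their summed TPM. M ranged from 10.1 to 15198.5 TPM with a median of 37.9, and 51 transcripts passed 100 TPM. Together they held 0.00379% of TPM in the egg. Their mean share was 0.0672% at Heider, 0.0554% at Meschnikoff, 0.122% at Krohn and 0.280% at Spengel. It was 1.98% and 2.48% in the 2 Agassiz libraries, 4.15% in transforming larvae and 2.95% in the adult. These levels chose the transcripts and are a description.

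**Figure D1:**
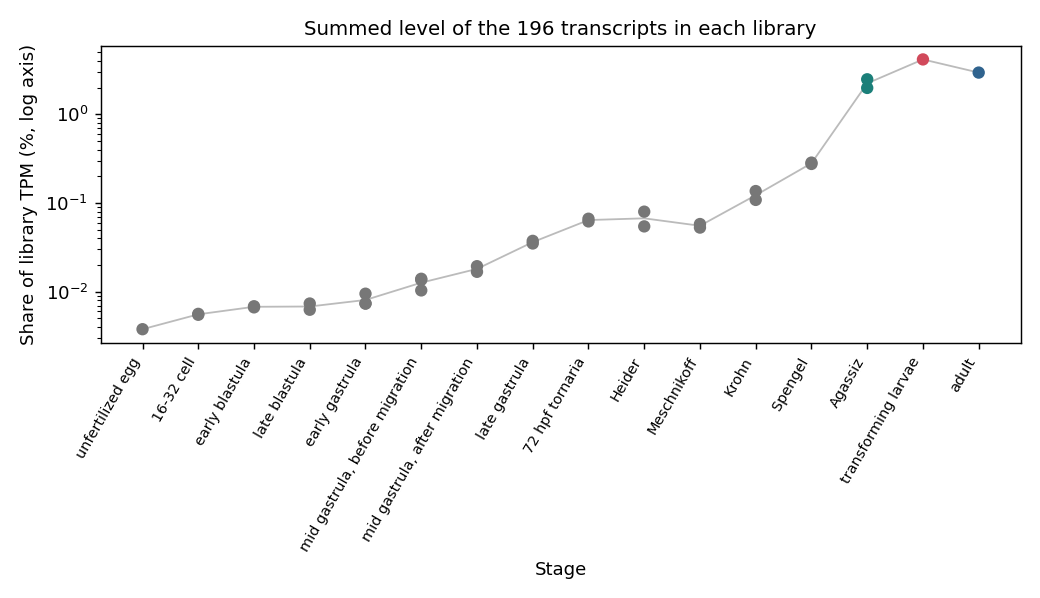
Each point is 1 library, with stages in developmental order on the x axis and the share of library TPM held by the 196 transcripts in percent on a logarithmic y axis; the line joins stage means. Agassiz is green, transforming larvae red, adult blue and all earlier stages grey. The summed share is 0.00379% in the egg. Its stage mean is 0.0672% at Heider and 0.0554% at Meschnikoff, whose libraries overlap, and 0.280% at Spengel. The share lies at 1.98% or above in the 4 libraries from Agassiz on.

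The most abundant transcript, TCONS_00012201, is a short model of 402 bases. It stood at 926 and 1111 TPM in the Spengel libraries, 4406 and 6275 TPM in Agassiz, 15198.5 TPM in transforming larvae and 7151 TPM in the adult. It was the largest contributor to the summed TPM of the 196, with 36.7% in transforming larvae and 24.3% in the adult. TPM is scaled by length, and in estimated counts the ranking differed. TCONS_00012201 had 35726 counts in transforming larvae and 16557 in the adult, and the longer TCONS_00016010 had 27109 and 58188. Without TCONS_00012201 the other transcripts still held 2.63% of TPM in transforming larvae and 2.23% in the adult.

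TCONS_00002093, of 597 bases, and TCONS_00055098, of 653 bases, also had their highest level in transforming larvae. TCONS_00002093 had 1388 and 1838 TPM in Agassiz, 3492 TPM in transforming larvae and 2312 TPM in the adult. TCONS_00055098 had 1136 and 1492 TPM in Agassiz, 2666 TPM in transforming larvae and 1235 TPM in the adult. The level of TCONS_00055098 in the adult lay inside the range of the Agassiz pair, and that of TCONS_00002093 above it.

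TCONS_00027074, of 534 bases, and TCONS_00016010, of 4349 bases, were highest in the adult. TCONS_00027074 had 1251 and 1570 TPM in Agassiz, 2229 TPM in transforming larvae and 2925 TPM in the adult. TCONS_00016010 had 581 and 511 TPM in Agassiz, 567 TPM in transforming larvae and 1276 TPM in the adult. The value of TCONS_00016010 in transforming larvae lay between those of the Agassiz libraries, and that in the adult above all of them.

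The other 3 of the 8 most abundant were TCONS_00043256, TCONS_00015769 and TCONS_00036727. TCONS_00043256 had 1049 and 1001 TPM in Agassiz, 1787 TPM in transforming larvae and 705 TPM in the adult. TCONS_00015769 had 881 and 851 TPM in Agassiz, 1576 TPM in transforming larvae and 1548 TPM in the adult. TCONS_00036727 had 717 and 880 TPM in Agassiz, 970 TPM in transforming larvae and 774 TPM in the adult, the flattest course of these 3. These 8 transcripts held 57.6% to 68.7% of the summed TPM of the set in the 4 libraries from Agassiz on.

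**Figure D2:**
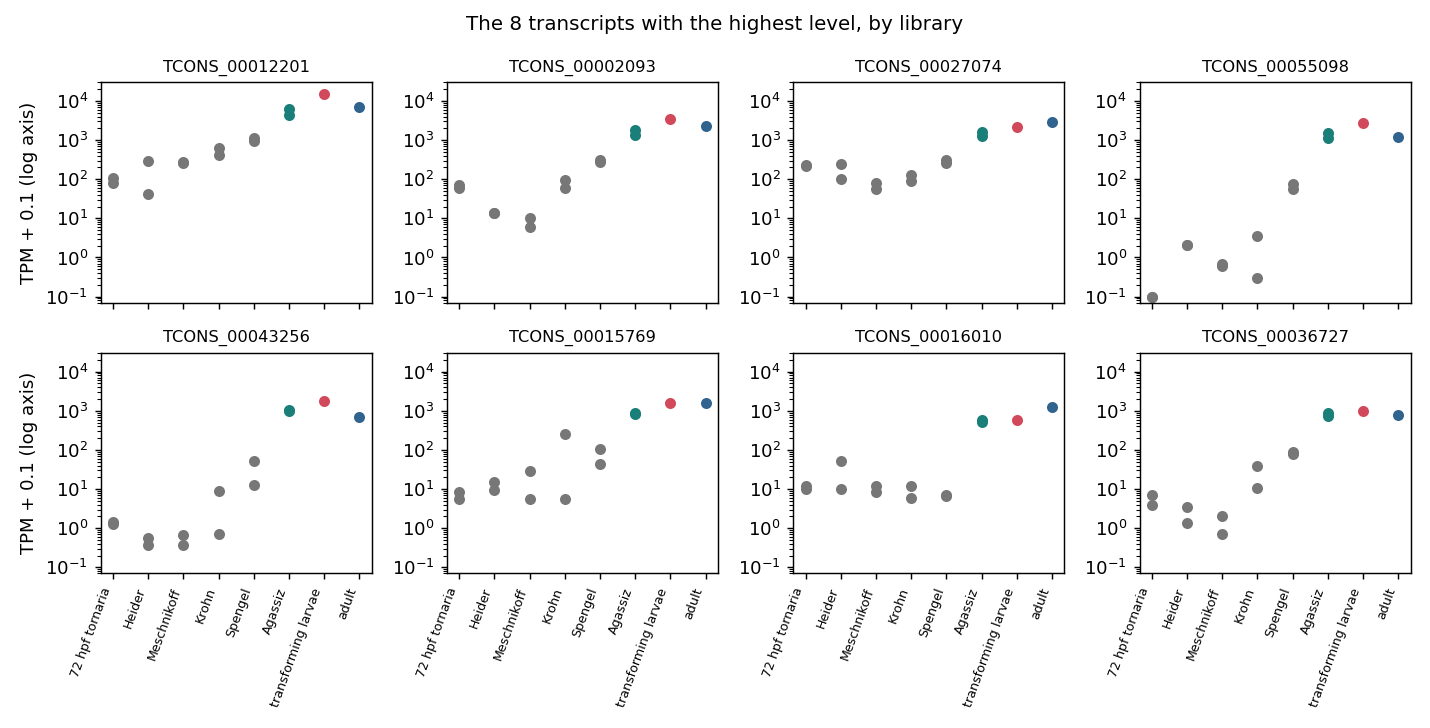
Each panel is 1 of the 8 transcripts with the highest M, with the stages from the 72 hpf tornaria to the adult on the x axis and TPM plus 0.1 on a logarithmic y axis; each point is 1 library, coloured green for Agassiz, red for transforming larvae, blue for the adult and grey for earlier stages. TCONS_00016010 shows no climb before Agassiz, with 6.59 and 6.86 TPM at Spengel, while TCONS_00012201 is already at 926 and 1111 TPM there.

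The stage of the highest level differed among the transcripts. Transforming larvae had the highest level for 101 transcripts (51.5%), the adult for 66 (33.7%) and Agassiz for 29 (14.8%). Among 10517 other models with at least 10 TPM and all 3 stages above the same 20% floor, the shares were 34.2%, 27.6% and 38.2%. Those models did not meet the limit before Agassiz, which is set against M, so the comparison is not free of the rule. The commonest order, in 62 transcripts, was transforming larvae over Agassiz over adult, and 50 had adult over transforming larvae over Agassiz. The 3 groups had median lengths of 1821 bases for those highest in transforming larvae, 1756 for those highest in the adult and 1941 for those highest in Agassiz.

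The most abundant transcripts with the highest level in Agassiz were TCONS_00029535, TCONS_00007632 and TCONS_00040801. TCONS_00029535 had 467 and 649 TPM in Agassiz, 236 TPM in transforming larvae and 255 TPM in the adult. TCONS_00007632 had 470 and 623 TPM in Agassiz, 297 TPM in transforming larvae and 216 TPM in the adult. In both, each Agassiz library lay above the later stages. TCONS_00040801 had 476 and 318 TPM in Agassiz, 306 TPM in transforming larvae and 212 TPM in the adult, so that 1 Agassiz library was close to transforming larvae. Among those highest in the adult, TCONS_00038063 ranked after TCONS_00027074 and TCONS_00016010, with 228 and 327 TPM in Agassiz, 562 TPM in transforming larvae and 891 TPM in the adult.

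**Figure D3:**
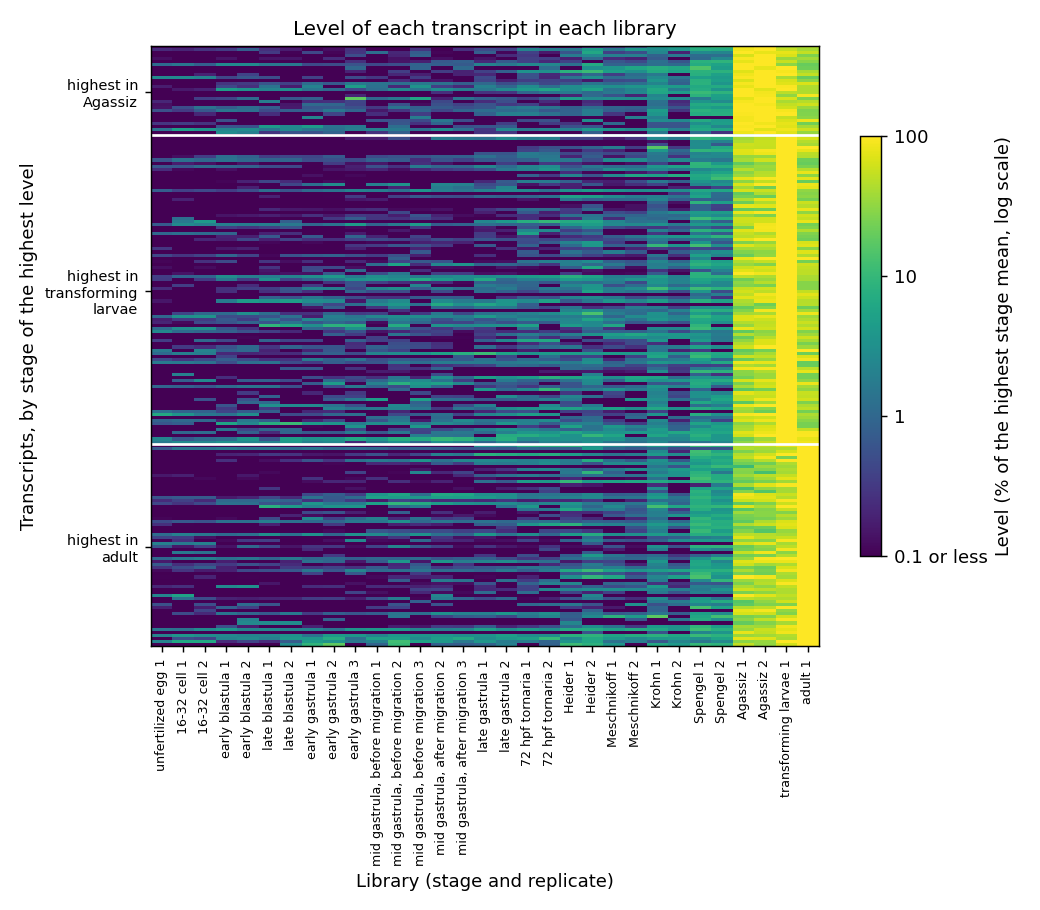
Rows are the 196 transcripts, grouped from top to bottom by the stage of their highest level (29 in Agassiz, 101 in transforming larvae, 66 in the adult) and sorted by M within a group; columns are the 31 libraries in developmental order. Colour gives the TPM in percent of M on a logarithmic scale. The 4 columns from Agassiz on are bright because the rule required it, and the Krohn 1 column is brighter than the Krohn 2 column.

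From Spengel to Agassiz, the step that the rule itself used, the fitted log2 fold change of the 196 had a median of 3.73, from 1.41 to 10.27. In edgeR's quasi-likelihood fit, 182 of them passed an adjusted p under 0.05 with at least a 2-fold rise, where 8.10% of the 30661 models tested did. All 196 passed the filter on low counts, and because this contrast chose them nothing is read from that count. In every one, each of the 4 libraries from Agassiz on was above each of the 27 earlier libraries. The limits on the stage means nearly fix this in advance, and nothing is read from it either. Close to the limits of the rule, TCONS_00007698 reached 9.96% of M at Spengel and was included, while TCONS_00036919 reached 10.05% and was not. TCONS_00008799 was included with 20.02% of M in the adult, and TCONS_00047958 was not with 19.98%. The lowest M among the 196 was 10.1 TPM, in TCONS_00022034, and TCONS_00017551 met the other limits at 9.93 TPM.

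The next question was whether levels moved within the larva before Agassiz, among stages that all lie under the limit of the rule. The rule does not set the direction of such a change. It does require low levels, relative to M, in all of these stages and higher ones from Agassiz on. The 196 could also pass the filter on low counts through the later stages. Comparisons with all models are therefore not free of the rule. Late tornariae (Krohn and Spengel, 4 libraries) were compared with early tornariae (72 hpf and Heider, 4 libraries) in the fit over all models. Of the 196, 84 rose (42.9%) and 4 fell (2.04%), against 16.7% and 8.15% of all models tested. Their median log2 fold change was 1.31, against 0.00 over all models tested, and 161 of 196 had a positive value. In 37 of the 84 that rose, all late tornaria libraries lay above all early tornaria libraries. The same count over all models that rose is not given here, so nothing is read from it about the set. Without Krohn replicate 1, 45 rose (22.96%) and 7 fell (3.57%), against 14.2% and 7.39% of all models in that fit.

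**Figure D4:**
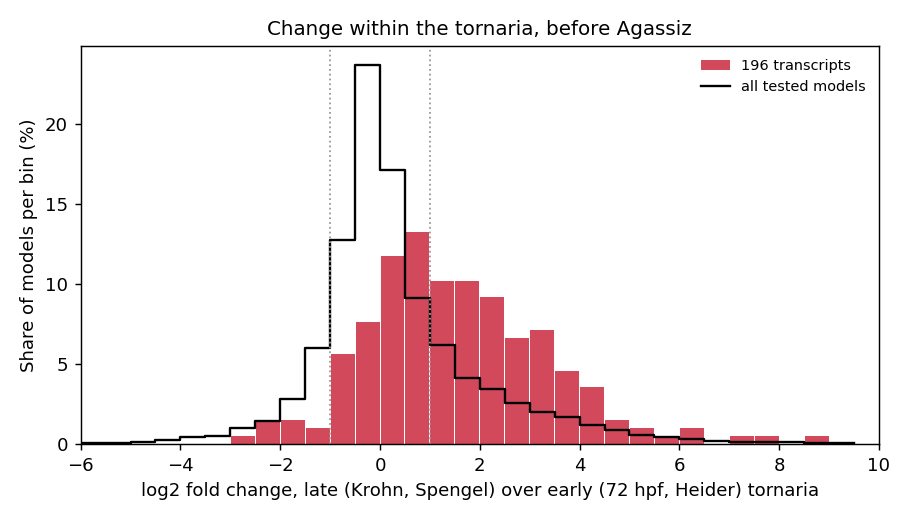
Bars give the share of the 196 transcripts and the black line the share of all models tested, in percent per bin of 0.5, by log2 fold change of late tornariae (Krohn and Spengel) over early tornariae (72 hpf and Heider); dotted lines mark a 2-fold change. The bars lie further right than the line, with a median of 1.31 against 0.00.

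The largest rises within the tornaria belonged to transcripts with almost no reads in the young larva. TCONS_00038063 had 108 and 56.1 TPM in Spengel, 23.0 and 1.77 TPM in Krohn, 0.323 and 0.119 TPM in Heider and 0 in both 72 hpf libraries. It rose by 8.88 ± 0.93 on the log2 scale (SE; adjusted p = 6.53e-06 in edgeR). TCONS_00001036 had 17.1 and 25.8 TPM in Spengel and 3.68 and 1.43 TPM in Krohn, against 1 count over the 4 early libraries. The ratio of summed counts was 435, between 77.7 and 17219 at 95% confidence (adjusted p = 1.38e-05 in edgeR). TCONS_00045138 had 10.4 and 5.62 TPM in Spengel and 1.125 and 0.160 TPM in Krohn, against 2 counts over the 4 early libraries. The ratio was 202, between 55.7 and 1677 (adjusted p = 0.000135 in edgeR). Such bounds cover counting error only. In all 3, each late library lay above each early one, and the call held in the 13 other fits made for it.

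TCONS_00029535, which was highest in Agassiz, was already at 44.4 and 61.6 TPM in Spengel and 23.5 and 26.04 TPM in Krohn, against 0.471 and 1.04 TPM in Heider and 0.951 and 0.551 TPM in the 72 hpf tornaria. The Krohn libraries differed little in this transcript, and its rise had a log2 fold change of 5.42 ± 0.36 (SE; adjusted p = 1.71e-08 in edgeR). TCONS_00015769 was different: Krohn replicate 1 had 263 TPM and Krohn replicate 2 had 5.40 TPM, next to 43.7 and 102.7 TPM in Spengel, 9.25 and 15.1 TPM in Heider and 5.42 and 8.43 TPM at 72 hpf. Its log2 fold change of 3.22 ± 0.73 (SE; adjusted p = 0.00173 in edgeR) became 1.00 with an adjusted p of 0.131 without Krohn replicate 1. Over its 13 other fits the adjusted p ran from 1.67e-05 to 0.131.

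The 4 transcripts that fell within the tornaria were TCONS_00057229, TCONS_00027553, TCONS_00016010 and TCONS_00039475, the last of which was named after its value was seen (-1.38 on the log2 scale). TCONS_00057229, a model of 330 bases, had 1.89 and 0.691 TPM in Spengel and 1.25 and 0 TPM in Krohn, against 6.37 and 5.71 TPM in Heider and 6.78 and 9.05 TPM at 72 hpf. Its log2 fold change was -2.93 ± 0.61 (SE; adjusted p = 0.0017 in edgeR), and its early level was at most 13 counts in a library. TCONS_00016010 had 52.7 TPM in Heider replicate 2 and at most 11.9 TPM in the other early libraries, against 5.82 to 11.6 TPM in the late ones. Its log2 fold change of -1.44 ± 0.32 (SE; adjusted p = 0.00159 in edgeR) shrank to -0.59 without that library. For TCONS_00027553, of which 72 hpf replicate 1 held 3.97 TPM and replicate 2 held 0.142 TPM, the value of -2.10 ± 0.74 (SE; adjusted p = 0.0314 in edgeR) became -0.22 with an adjusted p of 0.874 without 72 hpf replicate 1. Over its 13 other fits the adjusted p ran from 0.00258 to 0.874, and 8 of them kept the call.

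Krohn and Spengel are adjacent stages, and Spengel is the last before the rise that the rule required. The 196 could pass the filter on low counts through the later stages. Comparisons with all models are therefore not free of the rule here either. Between Krohn and Spengel, 8 of the 196 rose (4.08%) and 0 fell, against 0.320% and 0.0522% of all models tested. At an unadjusted p under 0.05, 69 were higher (35.2%) and 0 lower, against 4.83% and 7.18% of all models tested, and DESeq2's Wald test called 23 higher (11.7%) and 0 lower, against 0.806% and 0.287%. The 3 largest rises were those of TCONS_00032882, TCONS_00055098 and TCONS_00009868. TCONS_00032882 had 56.1 and 42.0 TPM in Spengel, against 2.29 and 0.308 TPM in Krohn, a log2 fold change of 5.06 ± 0.61 (SE; adjusted p = 0.00108 in edgeR). TCONS_00055098 had 75.6 and 57.3 TPM in Spengel, against 3.52 and 0.20 TPM in Krohn, a log2 fold change of 4.97 ± 0.55 (SE; adjusted p = 0.00249 in edgeR). TCONS_00009868 had 10.1 and 13.8 TPM in Spengel, against 0.665 and 0 TPM in Krohn, a log2 fold change of 4.90 ± 0.71 (SE; adjusted p = 0.00846 in edgeR). In these 3 both Spengel libraries lay above both Krohn libraries. DESeq2's Wald test did not call TCONS_00055098 (adjusted p = 0.223, range over its 9 other fits 0.00077 to 0.223), and without Krohn replicate 2 TCONS_00009868 had an edgeR adjusted p of 0.0647 (range 7.92e-07 to 0.197). Without Krohn replicate 1 there were 28 rises (14.3%, against 0.647% of all models). There were 2 rises without Krohn replicate 2 (1.02%, against 0.0816%) and 4 without Spengel replicate 1 (2.04%, against 0.124%). With only the 4 libraries compared in the fit, 0 of the 196 were called, and of all 24237 models in that fit 0 were called higher and 1 lower.

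The libraries of a stage were not equal in these transcripts. In Krohn, 79 of the 196 (40.3%) were at least 2-fold higher in replicate 1 and 6 (3.06%) at least 2-fold higher in replicate 2, against 9.87% and 7.47% of all models tested. In Spengel, replicate 1 was at least 2-fold higher for 44 (22.4%) and replicate 2 for 8 (4.08%), against 7.59% and 3.79%. In Heider, replicate 2 was at least 2-fold higher for 44 (22.4%) and replicate 1 for 19 (9.69%), against 8.10% and 10.6%. In Agassiz, where the levels were high, replicate 2 was at least 2-fold higher for 14 transcripts (7.14%) and replicate 1 for 0, against 5.62% and 6.83% of all models tested, and 136 of 196 were higher in replicate 2. The models tested were not matched in level to the 196, whose median was 0.782 and 0.313 TPM in the Krohn libraries. The shares are therefore not on equal terms. The cause of these differences was not tested.

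Levels at earlier stages were small relative to M, as the rule required, and their highest was mostly late. In absolute level they were not all small, with 926 and 1111 TPM at Spengel for TCONS_00012201. The highest stage before Agassiz was Spengel for 136 transcripts (69.4%), against 18.9% of all models with an M of at least 10 TPM. Those models were not held to the limit before Agassiz, so the comparison is not free of the rule. For the others of the 196, the highest earlier stages included Heider for 20, the 72 hpf tornaria for 11 and the egg or an embryonic stage for 22. Of the 196, 67 passed a mean of 1 TPM for the first time in Agassiz, 84 in a stage from the 72 hpf tornaria to Spengel and 45 in the egg or embryo. None had 0 counts in all 27 libraries before Agassiz, and 5 had 0 counts in all 17 egg and embryo libraries. TCONS_00016010 was present from the start, at 8.68 TPM in the egg, 19.5 and 18.8 TPM at the 16-32 cell stage and 8.89 and 7.97 TPM in the late gastrula. TCONS_00027074 had 91.2 and 71.1 TPM in the late gastrula, 234 and 221 TPM in the 72 hpf tornaria and 78.2 and 55.4 TPM in Meschnikoff, so that its level before Agassiz was not a steady climb.

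Between Agassiz and transforming larvae few changes passed the test, while most levels were the higher in transforming larvae. The rule bounds this ratio and does not set its direction outright. Its limit before Agassiz is set against M, however, so a high level in transforming larvae makes that limit easier to meet. The median of the highest earlier stage was 4.39% of M for transcripts highest in transforming larvae and 6.38% for those highest in Agassiz. Comparisons of direction with all models are therefore not free of the rule. Of the 196, 3 rose (1.53%) and 0 fell, against 0.995% and 1.37% of all models tested. The median log2 fold change was 0.85, against 0.05 over all models tested, and 157 of 196 (80.1%) had a positive value, against 53.5%. At an unadjusted p under 0.05, 49 were higher and 3 lower, against 8.04% and 6.44% of all models tested. DESeq2's Wald test called 7 higher (3.57%) and 0 lower, against 1.18% and 2.60% of all models. Transforming larvae had 1 library, which was assumed to vary like the other stages. With only the 3 libraries compared in the fit, 46 were called higher (23.5%) and 7 lower (3.57%), against 2.26% and 3.09% of all models in that fit.

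The 3 that rose were TCONS_00053894, TCONS_00041002 and TCONS_00054041, all of moderate level. TCONS_00053894, of 3076 bases, had 108.0 TPM in transforming larvae, against 20.9 and 22.8 TPM in Agassiz, a log2 fold change of 2.42 ± 0.47 (SE; adjusted p = 0.00605 in edgeR). TCONS_00041002, of 2895 bases, had 98.9 TPM in transforming larvae, against 33.0 and 25.04 TPM in Agassiz, a log2 fold change of 1.89 ± 0.35 (SE; adjusted p = 0.00419 in edgeR). TCONS_00054041, of 4603 bases, had 19.2 TPM in transforming larvae, against 4.64 and 7.67 TPM in Agassiz, a log2 fold change of 1.75 ± 0.40 (SE; adjusted p = 0.0212 in edgeR). Without Agassiz replicate 1 the adjusted p of TCONS_00053894 was 0.0846 and that of TCONS_00054041 was 0.227, and 1 of the 196 rose. Without Agassiz replicate 2 that of TCONS_00041002 was 0.0527. Over the 6 other fits in edgeR or DESeq2, the adjusted p ran from 0.00341 to 0.0846 for TCONS_00053894, from 2.12e-05 to 0.0527 for TCONS_00041002 and from 0.00637 to 0.227 for TCONS_00054041. For the most abundant transcript, TCONS_00012201, the log2 fold change was 1.64 (SE 0.59) with an edgeR adjusted p of 0.171, and it passed with only the compared libraries in the fit (adjusted p = 0.0329, range over the 6 other fits 0.0329 to 0.546).

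The adult and transforming larvae had 1 library each, and their difference has no replicate check and no test. On the scale of CPM, counts scaled to library totals adjusted by TMM (a correction for differences in RNA composition), plus 0.1, 31 of the 196 (15.8%) were at least 2-fold higher in the adult and 70 (35.7%) at least 2-fold lower, against 25.5% and 22.2% of all models tested. The other 95 lay within 2-fold. The median log2 ratio was -0.52, against -0.03 over all models tested. Since the rule keeps both stages within a 5-fold range, models under the same floor are the closer reference, although they did not meet its limit before Agassiz. Among 10517 of them 9.01% were at least 2-fold higher and 18.1% at least 2-fold lower in the adult.

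The widest gains in the adult were those of TCONS_00032882, TCONS_00010942 and TCONS_00049263. TCONS_00032882 had 754 TPM in the adult, against 190 TPM in transforming larvae, a ratio of 4.04 on TMM-scaled CPM plus 0.1, and its Agassiz libraries at 397 and 655 TPM were also above transforming larvae. TCONS_00010942 had 16.5 TPM in the adult, against 4.31 TPM in transforming larvae, and TCONS_00049263 had 15.6 TPM in the adult, against 4.23 TPM in transforming larvae. The widest losses were those of TCONS_00022045, TCONS_00047296 and TCONS_00008799. TCONS_00022045 had 3.34 TPM in the adult, against 16.5 TPM in transforming larvae. TCONS_00047296 had 31.7 TPM in the adult, against 157 TPM in transforming larvae, and TCONS_00008799 had 67.1 TPM in the adult, against 335 TPM in transforming larvae.

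**Figure D5:**
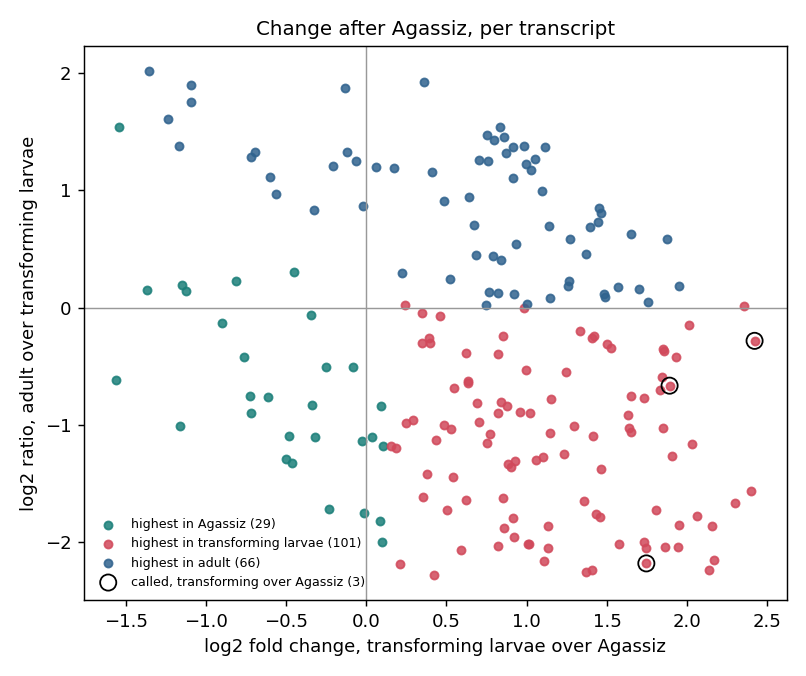
Each point is 1 of the 196 transcripts, with the fitted log2 fold change of transforming larvae over Agassiz on the x axis and the log2 ratio of adult over transforming larvae on the y axis, coloured by the stage of the highest level; circles mark the 3 called in transforming larvae over Agassiz. The right side holds 157 points, and 70 lie at -1 or lower on the y axis.

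The median length of the transcripts was 1818 bases (range 261 to 9842), against 1800 bases for all models with an M of at least 10 TPM and 1620 bases for all models. Models under 500 bases numbered 13 of the 196 and 1835 of the 18349 models with an M of at least 10 TPM. Among the 8 most abundant, TCONS_00012201 at 402 bases was the shortest and TCONS_00016010 at 4349 bases the longest. The longest of the 196 were TCONS_00050192 (9842 bases), TCONS_00027252 (9359 bases) and TCONS_00049704 (8760 bases). TCONS_00050192 was highest in Agassiz at 71.6 and 76.4 TPM, with 30.6 TPM in transforming larvae and 15.0 TPM in the adult. TCONS_00027252 was highest in the adult at 96.5 TPM, with 55.7 TPM in transforming larvae and 18.3 and 25.4 TPM in Agassiz. TCONS_00049704 had 17.1 TPM in the adult, 7.50 TPM in transforming larvae and 8.32 and 7.28 TPM in Agassiz.

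In 99 of the 196 (50.5%), at least 1 of the 4 libraries from Agassiz on had an estimated count that was not exactly whole, which shows reads shared with another model, against 41.1% of models with an M of at least 10 TPM. The levels of these transcripts are uncertain, since the split of such reads is an estimate. TCONS_00012201, TCONS_00036727, TCONS_00029535, TCONS_00040801, TCONS_00053894, TCONS_00041002 and TCONS_00032882 are among them.

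Of the 196, 12 have a neighbour of the next or previous identifier number in the set, in 8 consecutive pairs, and 6 pairs shared the stage of the highest level. The same counts over all models are not given here, so nothing is read from them about the set. Of the 12 transcripts, 6 form 1 run from TCONS_00051457 to TCONS_00051462, which was named after its values were seen. In this run 5 were highest in the adult. TCONS_00051457, the most abundant, had 33.3 and 23.3 TPM in Agassiz, 25.5 TPM in transforming larvae and 46.0 TPM in the adult. TCONS_00051458 had 20.1 and 31.7 TPM in Agassiz, 11.1 TPM in transforming larvae and 37.2 TPM in the adult. TCONS_00051459 had 27.0 and 33.3 TPM in Agassiz, 17.0 TPM in transforming larvae and 41.8 TPM in the adult. A lower level in transforming larvae than in the adult was shared by these 3 and by TCONS_00051460 and TCONS_00051461, while TCONS_00051462 had 7.83 TPM in transforming larvae and 4.30 TPM in the adult. The run had little before Agassiz, with 4 to 59 counts per model over 27 libraries. The models numbered just before it were larval, TCONS_00051455 with 24.2 TPM and TCONS_00051456 with 15.6 TPM at Heider and both under 1 TPM in each library from Agassiz on. The model numbered just after it, TCONS_00051463, met the other limits but had an M of only 1.54 TPM. It reached 4.56% of M before Agassiz and 60.6% of M at its lowest later stage. Whether neighbouring numbers lie at 1 locus is not given in the sources used here.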

How the data were processed

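RNA of whole animals was sequenced in 31 libraries of 16 stages, with stages and replicate numbers as in the sample titles. Per the file headers, the deposited tables give for each transcript model its length, its effective length, an estimated count and a TPM value. The estimated counts are fractional where the authors' quantification split reads between models, and the deposited TPM values were scaled by effective length. kallisto and edgeR are named in the submitters' processing notes. No version, role, genome build or origin of the models was stated (not given in the sources used here). No column of another sample was present.

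The members were chosen on stage means of the deposited TPM. The members, lists and tests were chosen with earlier results of these data known. Estimated counts were rounded and fitted in R 4.3.3 with edgeR 4.0.16 (TMM scaling, factors 0.604 to 1.34, filterByExpr by stage, trended dispersion, quasi-likelihood test) with 1 coefficient per stage over all 31 libraries. Calls required an adjusted p (Benjamini-Hochberg, over all 30661 models) under 0.05 and a 2-fold difference. The spread of a stage with a lone library was taken to equal that of the other stages. The fit was tested on simulated data with known changes. DESeq2 1.42.0, other scalings, filters, thresholds, a replicate block and leaving out each Agassiz, Spengel, Krohn, Heider and 72 hpf library in turn were tried as alternatives. Ratios against 1 to 3 counts have exact conditional 95% intervals. Named were the 8 transcripts with the highest M, the 3 highest per stage of the highest level, up to 3 with the largest called change each way per contrast, the 3 largest ratios each way of adult to transforming larvae, the 3 longest and those nearest each limit. Transcripts named by another route are marked in the text. Figures were drawn with matplotlib 3.10.9.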

Additional observations from a re-analysis of the deposited data

How the results depend on the processing

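The number of transcripts that met the rule followed its limits: 90 at a limit before Agassiz of 5% of M, 421 at 20%, 340 at a floor of 10% and 121 at 30%. On TMM-scaled CPM in place of TPM it was 213, of which 164 were shared with the 196, and with 1 Agassiz or Spengel library left out it ranged from 183 to 232. As shares of counts in place of TPM, the 196 held 1.61% in Agassiz, 2.56% in transforming larvae and 2.51% in the adult. For transforming larvae over Agassiz, 46 rose and 7 fell with only the compared libraries in the fit, DESeq2's Wald test called 7 higher, and with an Agassiz library left out 1 to 3 rose and 0 fell. For Spengel over Krohn, 0 rose with only the compared libraries, DESeq2's Wald test called 23, and with 1 library left out 2 to 28 rose. For late over early tornariae, 45 to 84 rose and 2 to 7 fell with 1 library left out, against 14.2% to 16.5% and 7.23% to 7.86% of all models. With only the compared libraries, 63 rose (32.1%) and 2 fell (1.02%), against 17.9% and 8.55% of all 25745 models in that fit. The shares of the 196 are over all 196, whether or not they passed the filter on low counts there. Their bases therefore differ, and no such comparison of tornaria stages with all models is free of the rule. At 4-fold in place of 2-fold on TMM-scaled CPM, 1 transcript was higher and 17 were lower in the adult than in transforming larvae. The rule keeps both stages within a 5-fold range, and the same counts over all models are not given here, so nothing is read from these about the set. The cause of these shifts was not tested. DESeq2's size factors moved the median log2 fold change of late over early tornariae over all models to 0.12. Of the 196, 87 then rose (44.4%) and 4 fell (2.04%), against 18.2% and 6.59% of all models. Of 438 refits of 43 pairs of a named transcript and a contrast, 398 kept the call or its absence, 32 lost a call, 8 gained one and 0 reversed. The correlations of same-numbered deviations between the 4 tornaria stages ran from -0.21 to 0.15, the highest being that of Krohn with Spengel. With 2 libraries per stage, they cannot tell whether libraries of the same number are paired. With the replicate block, 12 rose for Spengel over Krohn (6.12%, against 0.476% of all models). For late over early tornariae, 80 then rose (40.8%) and 4 fell (2.04%), against 17.1% and 8.46% of all models. Over all models, the block gave 146 rises and 31 falls for Spengel over Krohn, against 98 and 16 without it. No paired analysis was possible for transforming larvae over Agassiz because transforming larvae have 1 library. Leaving out the only transforming or adult library was likewise not possible. In the egg library 104 of the 196 had 0 counts, and low levels and absence cannot be told apart there.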
